A study of Mus musculus with 12 samples.

Results

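The receptor chains through which CD4+ T cells sense IL-1, IL-33, IL-18, IL-12, IL-23 and IL-6 were described across the 4 cell groups of the study. The 10 genes were listed by name, by a rule that holds no measured value, although earlier results of these data were known when the list was made: *Il1r1*, *Il1r2*, *Il1rl1*, *Il18r1*, *Il18rap*, *Il12rb1*, *Il12rb2*, *Il23r*, *Il6ra* and *Il6st*. All 10 were among the 17523 genes of the table and passed the filter on low values, which left 15587 genes for testing.

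These cytokines act on T cells after the antigen receptor has been engaged, and several of them are known to promote or restrain GM-CSF production. IL-1, IL-18 and IL-33 bind receptors of one family, which signal through the adaptor MyD88, while IL-1R2 binds IL-1 without signalling and so acts as a decoy. IL-12 and IL-23 share the chain IL-12Rβ1 and the kinases JAK2 and TYK2, and IL-6 binds IL-6R, which recruits the signalling chain gp130 that other cytokines use as well.

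RNA came from CD4+ T cells of *Gr/fr* mice on the C57BL/6 strain, and no group was immunized or treated. Every mouse carried a *Csf2* allele that also encodes iCre and BFP together with a Rosa26 eYFP reporter. YFP+ cells are therefore cells that express GM-CSF or once did, with their progeny, and YFP- cells carry the same alleles without the recombined reporter. Splenic cells were sorted as naïve (CD62L+CD44-) or effector memory (TEM, CD62L-CD44hi) and then by YFP, which gave YFP- naïve, YFP+ naïve, YFP- TEM and YFP+ TEM cells with 3 libraries each. YFP records history and not present secretion. The methods give an age for mice sorted for culture and none in the account of the sequenced cells, and no exclusion of regulatory T cells is named for this sort.

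Each library held 40974124 to 57822269 reads on genes. Levels are normalized counts, the read number over the library size factor, and are given as mean ± SD (n = 3). A gene was called at an adjusted p of 0.05 or less over all tested genes, and only then is it said to have risen or fallen. A fold change is a difference of mean log2 values after 1 was added to each count, which makes the changes of scarce genes look smaller. *Xist* and *Ddx3y* showed replicate 3 of every group to be male and the others female, so sex was balanced between the groups. *Cd44* lay between 2334 and 3372 normalized counts in the 6 naïve libraries and between 21778 and 29383 in the 6 TEM libraries, while *Cd4* was at 36078 or more in every library. *Csf2* itself had at most 3.94 normalized counts in any library other than the YFP+ TEM ones, which had 139, 55.9 and 152. Markers of other cells were present as well. The summed level of 8 NKT and NK cell markers was 2652 to 3616 normalized counts in YFP- TEM and 8191 to 14051 in YFP+ TEM cells, with *Ncr1* at 0 in all YFP- TEM libraries. The sums of 8 monocyte, macrophage and dendritic cell markers were 12783 to 21662 and 4104 to 6578, and those of 8 plasmacytoid dendritic cell markers were 9977 to 16617 and 5797 to 8125, in the same order. The plasmacytoid sum hides larger changes of single genes. *Siglech* averaged 2681 and 66.8, *Klk1* 910 and 22.7 and *Cox6a2* 198 and 4.06, while *Ccr9* went the other way, with 975 and 2442. The YFP+ naïve replicate 2 library stood apart, with 4956 normalized counts of the myeloid markers against 2153 to 2565 in the other YFP+ naïve libraries, and with 522 of the neutrophil markers against 2.79 and 19.8.

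The first question was how the receptors differ between TEM and naïve cells of the same YFP status. Among YFP- cells, 8 of the 10 genes rose in TEM cells and 2, *Il6ra* and *Il6st*, fell (limma, adjusted p from 2.64e-09 to 0.00283). All 10 had libraries that did not overlap between the 2 groups. Of all tested genes, 49.8% were called in this comparison, 29.9% higher and 19.9% lower, while 59.0% did not overlap, 33.9% with the TEM libraries higher. Among YFP+ cells the same 8 genes rose and the same 2 fell (adjusted p from 4.78e-10 to 0.000468), again with no overlap. Here 41.4% of all tested genes were called, 24.7% higher and 16.7% lower, and 48.7% did not overlap, 27.4% with the TEM libraries higher and 21.3% with them lower. Markers of other cells and states also rose from YFP- naïve to YFP- TEM cells. These were 6 of 6 for regulatory T cells, 6 of 8 for NKT and NK cells, 7 of 8 for myeloid cells and 8 of 8 for plasmacytoid dendritic cells. All 5 markers of type 1 helper cells and all 5 tested markers of type 2 cells rose too, while 3 of 7 B cell markers rose and 3 fell. The part of such cells in the receptor levels was not tested. In bulk samples, fewer cells of a type and less RNA per cell cannot be told apart.

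**Figure D1:**
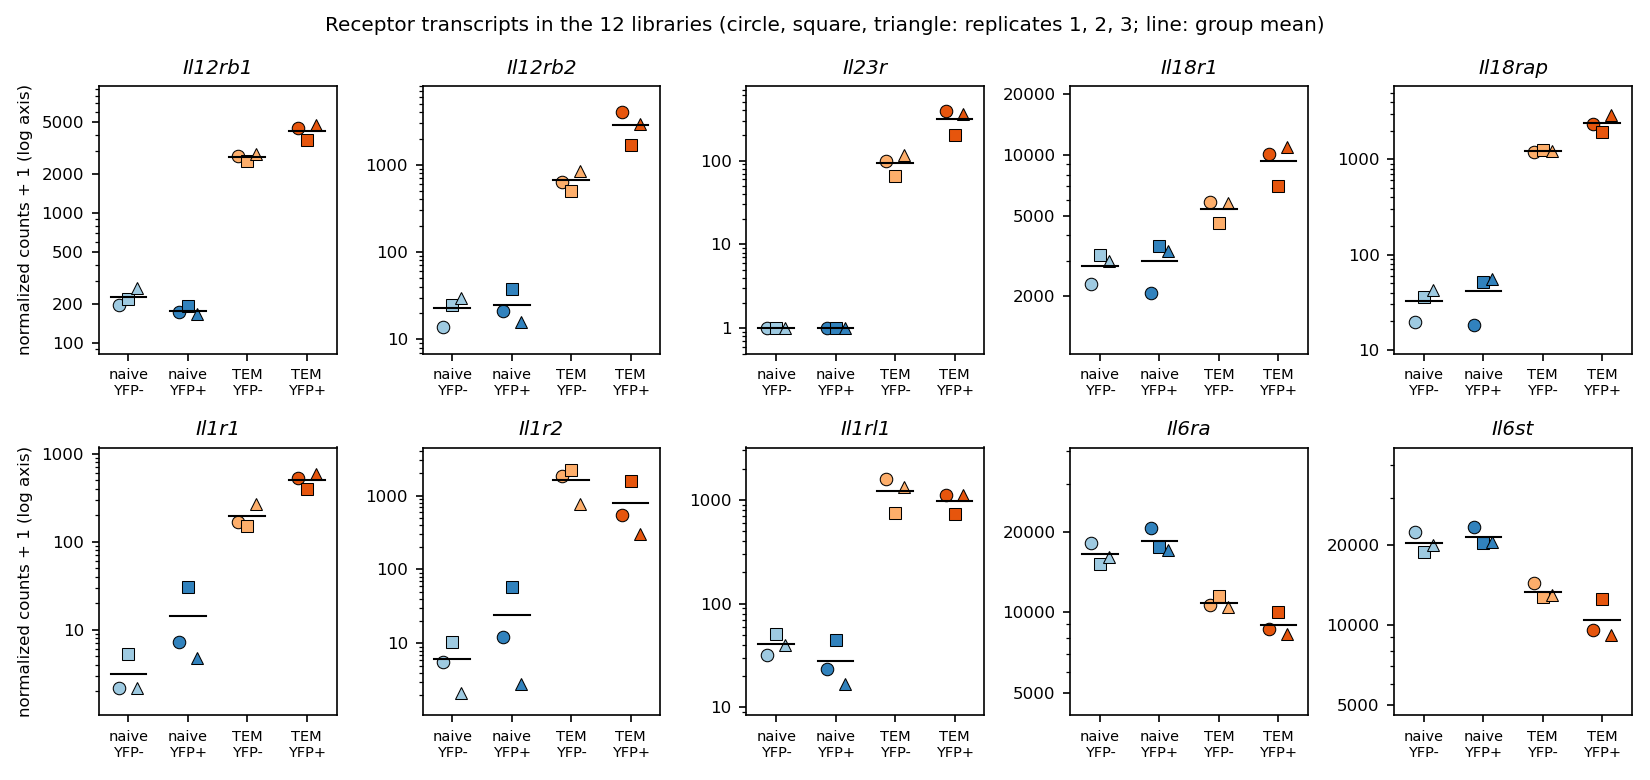
Normalized counts plus 1 of the 10 receptor genes on log axes, 1 panel per gene, for the 3 libraries of each of the 4 groups, with symbols for the replicate number and a line at the group mean. The 6 TEM libraries lie above the 6 naïve libraries in 8 panels and below them in the panels of *Il6ra* and *Il6st*; *Il23r* is at 0 in all 6 naïve libraries.

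The receptors that limma called between YFP+ and YFP- TEM cells over all 12 libraries were chains of the IL-12 and IL-23 receptors. *Il12rb2* encodes the chain that pairs with IL-12Rβ1 to form the IL-12 receptor and is a known mark of type 1 helper cells. Its normalized counts were 639, 502 and 841 in YFP- TEM replicates 1 to 3 and 4005, 1691 and 2912 in YFP+ TEM replicates. The lowest YFP+ library thus lay above the highest YFP- library, and within replicate numbers the YFP+ library was 3.37 to 6.27 times as high. *Il12rb2* rose by 2.06 on the log2 scale (SE 0.40, 95% interval 1.19 to 2.94, adjusted p = 0.00694, limma), and it passed the threshold in all 18 alternatives, with adjusted p up to 0.0413. Of 5 markers of type 1 helper cells, 1 rose, *Tbx21*, which encodes their transcription factor T-bet (log2 fold change 0.68), and their summed level was 16744 to 21783 normalized counts in YFP- and 24875 to 29809 in YFP+ TEM cells.

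*Il23r*, the chain specific for IL-23, had 0 reads in all 6 naïve libraries, which allows up to 3 reads in each. It was at 99.2, 64.5 and 117 normalized counts in YFP- TEM and at 387, 199.9 and 362 in YFP+ TEM cells, and these ranges did not overlap. *Il23r* rose by 1.73 on the log2 scale in YFP+ TEM cells (SE 0.41, adjusted p = 0.0226, limma). The call was lost without YFP- TEM replicate 1 (adjusted p = 0.0688), 2 (0.107) or 3 (0.0519) and without YFP+ TEM replicate 1 (0.123) or 3 (0.111), and it was kept without YFP+ TEM replicate 2 (0.0201). Of 6 tested markers of IL-17-producing and γδ T cells, 0 were called by limma, and their sum was 1749.6 to 3746 normalized counts in YFP- and 2859 to 5318 in YFP+ TEM cells. Against the floor of 3 reads per library, *Il23r* was at least 27.8-fold higher in YFP- TEM than in YFP- naïve cells and at least 100.4-fold higher in YFP+ TEM than in YFP+ naïve cells.

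*Il12rb1* encodes the chain that both receptors share. Its levels in YFP- TEM cells were 2726, 2531 and 2843 normalized counts, and in YFP+ TEM cells they were 4526, 3628 and 4737. These 6 libraries fell into 2 separate ranges. *Il12rb1* rose by 0.66 on the log2 scale (SE 0.14, adjusted p = 0.00906, limma), although without YFP+ TEM replicate 3 the adjusted p was 0.0538. Naïve cells had far less, with 196, 217 and 266 normalized counts in YFP- and 174, 193 and 166 in YFP+ cells. There the YFP+ libraries lay just below the YFP- ones, where the log2 change of -0.34 did not pass the threshold (SE 0.14, unadjusted p = 0.0278, adjusted p = 1, limma).

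In all, limma called 3 of the 10 receptors between YFP+ and YFP- TEM cells, each higher in YFP+ cells. DESeq2 called 5, with *Il18r1* and *Il18rap* added, and limma on the 6 TEM libraries alone called 6, with *Il1r1* added as well. Among all tested genes limma over all 12 libraries called 6.97%, or 1087 genes, 2.30% higher and 4.67% lower. DESeq2 called more, 1588 genes, and the number over all genes was not taken for the fit of the 6 TEM libraries alone. The number of receptors called was 5 without YFP+ TEM replicate 2 and 1, *Il12rb2*, without YFP+ TEM replicate 3. The numbers over all genes are not given for these fits either. The 3 YFP+ libraries lay above the 3 YFP- libraries for 6 receptors and below them for 2, against 10.6% and 14.3% of all tested genes. In each of the 6 that lay above, *Il12rb1*, *Il12rb2*, *Il23r*, *Il18r1*, *Il18rap* and *Il1r1*, replicate 2 was the lowest of the YFP+ TEM libraries. The same library had the lowest sum of NKT and NK cell markers in its group, 8191 normalized counts against 14051 and 12945. This was not particular to those markers. Replicate 2 was also lowest for the summed type 1, type 2, type 17, plasmacytoid, myeloid, neutrophil, mast cell, B cell and CD8 markers. The regulatory T cell markers were lowest in replicate 3 (43448 normalized counts). Of the 8 NKT and NK cell markers, 6 rose in YFP+ TEM cells, among them *Zbtb16*, the NKT cell transcription factor (log2 fold change 3.25), and *Klrb1c*, the NK1.1 antigen (3.03). *Eomes* of the same list lay the other way (-0.43) and was not called. The part of such cells in the receptor levels was not tested. Smaller sums changed too, with neutrophil markers at 211 to 431 and 2366 to 8540 normalized counts, nearly all of it *Mmp9*, and mast cell and basophil markers at 23.4 to 40.2 and 86.0 to 159 in YFP- and YFP+ TEM cells. B cell markers were at 2362 to 3456 and 1455 to 2019 and CD8 chains at 685 to 1490.3 and 187 to 373, in the same order.

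**Figure D2:**
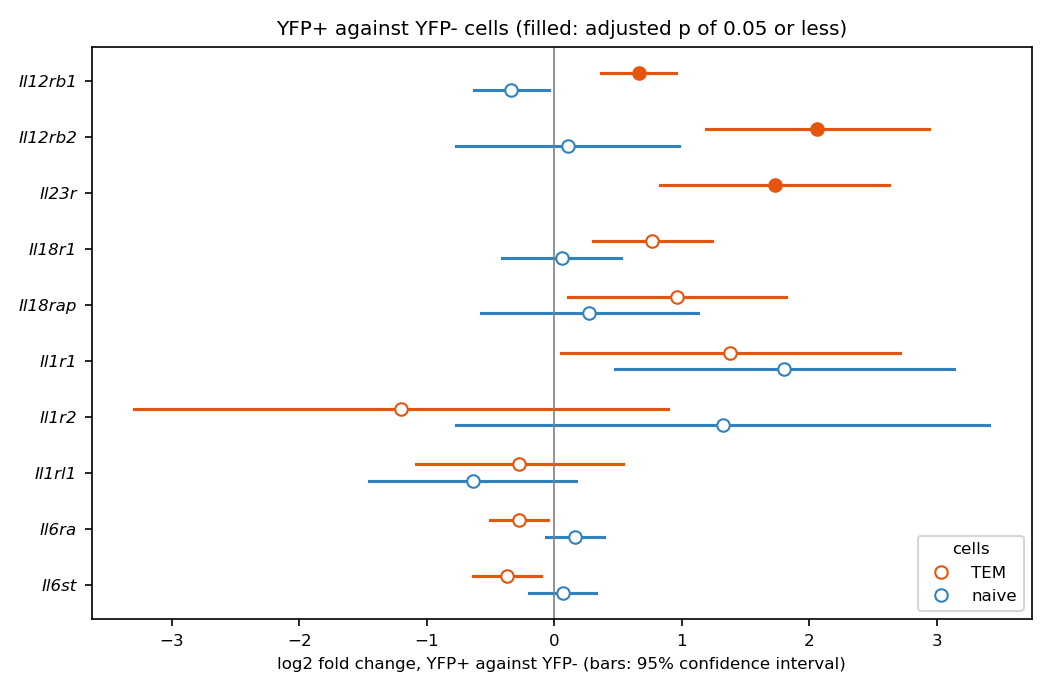
Log2 fold change of YFP+ against YFP- cells for each receptor gene, with 95% confidence intervals from the limma fit, in TEM (orange) and naïve (blue) cells; filled points have an adjusted p of 0.05 or less. The 3 filled points are *Il12rb1*, *Il12rb2* and *Il23r* in TEM cells, at 0.66, 2.06 and 1.73, and no point is drawn for *Il23r* in naïve cells, where both groups had 0 reads.

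*Il12rb2* and *Il23r* are neighbours on chromosome 6 of mouse build GRCm38.p6, at 67285986 to 67376293 and 67422932 to 67491855, with only pseudogenes annotated between them, and both are read from the minus strand. *Il12rb2* overlaps the end of *Serbp1*, whose change was 0.13 log2 between YFP+ and YFP- TEM cells and -0.15 between YFP- TEM and YFP- naïve cells. Whether reads were counted by strand is not stated in the sources used here. Because these 2 genes had the largest fold changes among the receptors in the TEM comparison, their RefSeq promoter windows are shown, from 250 bases before to 50 bases after an annotated start. Capitals mark TTCNNNGAA in the first, the core letters of STAT binding sites, and AGGTCA or its complement in the second, the half-site of ROR nuclear receptors.
Il12rb2 (chr6:67376139-67376438, minus strand): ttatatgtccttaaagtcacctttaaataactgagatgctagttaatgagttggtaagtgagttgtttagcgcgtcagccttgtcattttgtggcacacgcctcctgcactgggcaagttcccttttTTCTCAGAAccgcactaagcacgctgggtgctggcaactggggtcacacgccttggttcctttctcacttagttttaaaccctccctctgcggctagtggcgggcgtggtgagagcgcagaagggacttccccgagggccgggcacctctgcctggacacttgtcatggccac
Il23r (chr6:67491806-67492105, minus strand): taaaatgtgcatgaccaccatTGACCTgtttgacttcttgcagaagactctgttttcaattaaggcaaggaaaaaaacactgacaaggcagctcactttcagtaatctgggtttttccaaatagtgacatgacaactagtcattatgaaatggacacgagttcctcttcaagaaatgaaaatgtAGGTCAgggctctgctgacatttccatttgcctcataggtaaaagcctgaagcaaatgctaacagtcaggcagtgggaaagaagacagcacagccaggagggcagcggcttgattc
The *Il12rb2* window held TTCNNNGAA once, 123 bases before the start. The *Il23r* window held AGGTCA 2 times, 229 bases before the start on the opposite strand and 66 bases before it on the gene's own strand. Searched on both strands, TTCNNNGAA occurred in 8.30% and AGGTCA in 16.3% of the 32851 windows in the table. The letters were not particular to these 2 receptors. TTCNNNGAA was also found in a window of *Il1r2*, 111 bases before the start, and in a window of *Il18r1*, 219 and 152 bases before it. AGGTCA was found in a window of *Il1rl1*, 185 bases before the start. No match overlapped another. A match describes the letters and does not show a bound site.

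The IL-18 receptor has a ligand-binding chain, *Il18r1*, and a signalling chain, *Il18rap*. The 2 differed in how naïve cells carried them. *Il18r1* was already high in naïve cells, at 2289, 3188 and 3004 normalized counts in YFP- and 2086, 3555 and 3344 in YFP+ libraries. *Il18rap* had 18.4, 35.0 and 41.5 in the former and 17.3, 51.2 and 53.9 in the latter. Between YFP- naïve and YFP- TEM cells *Il18r1* rose by 0.95 on the log2 scale (SE 0.22, adjusted p = 0.00283, limma) and *Il18rap* by 5.30 (SE 0.39, adjusted p = 3.67e-07, limma).

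In TEM cells, *Il18r1* had 5864, 4619 and 5786 normalized counts without and 10077, 7036 and 10955 with YFP. The ranges were separate and the log2 fold change was 0.77, but the adjusted p of 0.0519 missed the threshold (SE 0.22, limma). With the replicate number as a block it was 0.0305, and edgeR and DESeq2 on the recovered reads gave 0.0448 and 0.00647. *Il18r1* passed in 7 of 18 alternatives. With 1 library left out it passed in 1 of 6 fits, with adjusted p up to 0.2 (limma). *Il18rap* had 1191, 1268 and 1212 normalized counts in YFP- and 2377, 1937 and 2945 in YFP+ TEM cells. Its log2 fold change was 0.96 with separate ranges (SE 0.39, adjusted p = 0.212, limma), and the 95% interval ran from 0.11 to 1.81. *Il18rap* passed the threshold with DESeq2 (adjusted p = 0.00658) and in limma on the 6 TEM libraries alone (0.0054), and it did not with edgeR (0.0523) or the replicate block (0.0697).

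Among the IL-1 receptors, the signalling receptor *Il1r1* and the decoy *Il1r2* were both scarce in naïve cells. *Il1r1* had 1.15, 4.24 and 1.15 normalized counts in YFP- naïve libraries, from 1, 4 and 1 reads, and 167, 151 and 269.9 in YFP- TEM cells. YFP+ TEM cells had 522, 399.7 and 585, above every YFP- TEM library. A log2 change of 1.38 in the TEM comparison did not pass the threshold (SE 0.61, 95% interval 0.05 to 2.71, adjusted p = 0.268, limma). In limma on the 6 TEM libraries alone it did (adjusted p = 0.0131). That was the 1 of 18 alternatives that called *Il1r1*, and with 1 library left out the adjusted p was 0.289 to 0.528 (limma).

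*Il1r2* lay the other way. Its normalized counts were 1831, 2231 and 765 in YFP- TEM cells and 553, 1552 and 298 in YFP+ TEM cells, so the groups overlapped. The YFP+ library was lower within each of the 3 replicate numbers, at 0.302 to 0.696 times the YFP- library, and the male replicate 3 was the lowest library of both TEM groups. The summed myeloid markers were also lower in YFP+ TEM cells, as given above, and their part was not tested. The log2 fold change was -1.20 (SE 0.96, 95% interval -3.29 to 0.89, adjusted p = 0.648, limma). Reads of *Il1r2* and of the antisense transcript *Gm16894*, which overlaps its first bases and averaged 13.2 normalized counts in YFP+ TEM cells, cannot be told apart without strand.

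The ST2 chain of the IL-33 receptor, *Il1rl1*, is known from regulatory T cells and type 2 cells. It had 1598, 739.6 and 1331 normalized counts in YFP- TEM and 1120.2, 723 and 1101 in YFP+ TEM libraries. Replicate 2 was the lowest of both groups and the ranges overlapped. The log2 fold change was -0.27 (SE 0.37, 95% interval -1.09 to 0.54, adjusted p = 0.835, limma). Of 5 tested markers of type 2 cells 0 were called by limma, with sums of 10031 to 14372 and 11190.3 to 15983 normalized counts in YFP- and YFP+ TEM cells. Of 6 regulatory T cell markers, 1 was called between the same groups, with *Foxp3* falling by 0.87 on the log2 scale, and the summed level of all 6 was 52141 to 71708 normalized counts in YFP- and 43448 to 48887 in YFP+ TEM cells. *Il2ra* alone of the 6 lay the other way, with a log2 fold change of 0.62, and was not called (adjusted p = 0.225, limma). The shared accessory chain of the IL-1 and IL-33 receptors, *Il1rap*, averaged 902 ± 130 normalized counts in naïve cells without YFP and 949 ± 176 in those with it. In TEM cells it averaged 959.5 ± 60.6 and 1047 ± 88.0, and it was called in none of the comparisons.

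Both chains of the IL-6 receptor were higher in naïve cells. *Il6ra*, the ligand-binding chain, had 18100.1, 15187 and 16024 normalized counts in YFP- naïve and 10639, 11460.4 and 10469 in YFP- TEM cells, and fell by 0.60 on the log2 scale (SE 0.10, adjusted p = 0.000439, limma). *Il6st*, which encodes gp130, fell by 0.61 (SE 0.12, adjusted p = 0.00107, limma), from 20415 ± 1856 to 13320.0 ± 907 normalized counts. Among YFP+ cells the 2 genes fell by 1.04 and 1.05.

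Within TEM cells, *Il6ra* was at 8644, 10004 and 8254 normalized counts in YFP+ libraries and *Il6st* at 9551, 12467 and 9140.3. All 3 YFP+ libraries lay below the YFP- ones for both genes, and replicate 2 was the highest of them. The log2 fold changes of -0.28 for *Il6ra* (adjusted p = 0.162) and -0.37 for *Il6st* (adjusted p = 0.102) did not pass the threshold in limma. Without YFP+ TEM replicate 2, *Il6st* did (adjusted p = 0.0149, limma). That was the 1 of 18 alternatives that called *Il6st*, and with 1 library left out the adjusted p was up to 0.366 (limma). Myeloid cells also express these chains, and 4 of the 8 myeloid markers fell in YFP+ TEM cells, among them *Itgam* by 3.55 on the log2 scale. *Cd14* lay the other way and was not called, with 32.8, 36.3 and 21.4 normalized counts in YFP- and 239, 115 and 97.9 in YFP+ TEM libraries. The part of myeloid cells was not tested.

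The pattern of *Il6ra* over the 12 libraries was closest to that of *Il6st*, and the reverse held too. Their log2 values, each centred on its own mean, differed by a root mean square of 0.09 the smallest difference from any of the 11913 genes that averaged 50 normalized counts or more. By the same measure the gene most like *Il12rb1* was *Il2rb*, a chain of the IL-2 and IL-15 receptors (0.24), that most like *Il18r1* was *Serpinb9* (0.21), that most like *Il23r* was *Krt83* (0.31), and that most like *Il12rb2* was *Il18rap* (0.64). The promoter windows of *Il6st* and *Il6ra* held 33 and 25 CpG dinucleotides, against 1 to 16 in the windows of the 7 other receptor genes in the table and a median of 7 over all windows. At least as many were found in 8.56% and 18.4% of all windows. *Il12rb1* had no promoter window, so its promoter was not searched.

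Between YFP+ and YFP- naïve cells none of the 10 receptors was called by limma, edgeR or DESeq2. Of all 15587 tested genes limma called 1, or 0.00642%. The libraries of 1 receptor, *Il12rb1*, did not overlap, against 5.38% of all tested genes, 3.16% with YFP+ higher and 2.21% with YFP+ lower. Regulatory T cell markers moved in the same direction, with sums of 8083 to 10133 normalized counts in YFP- and 5633 to 6427 in YFP+ naïve cells, and their part was not tested. At an unadjusted p of 0.05 or less there were 2 receptors, *Il12rb1* and *Il1r1*. *Il1r1* had 6.18, 29.5 and 3.72 normalized counts in YFP+ naïve cells and was 3.23 to 6.96 times as high as in YFP- cells of the same replicate number (log2 fold change 1.80, SE 0.61, adjusted p = 1, limma). *Il1r2* had 11.1, 56.1 and 1.86 against 4.61, 9.55 and 1.15. The highest library for both was YFP+ naïve replicate 2, which also held the most myeloid and neutrophil transcripts, and the part of such transcripts was not tested. For the better measured genes the intervals were narrow, from -0.20 to 0.33 for *Il6st*, from -0.07 to 0.39 for *Il6ra* and from -0.41 to 0.53 for *Il18r1* on the log2 scale. The IL-12 chain *Il12rb2* had 12.7, 23.3 and 28.8 normalized counts in YFP- and 19.8, 36.4 and 14.9 in YFP+ naïve cells, which overlapped.

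Whether YFP status went with a different change in TEM than in naïve cells was tested as an interaction. *Il12rb1* was the 1 receptor called, with a difference of 1.00 in log2 fold change (SE 0.19, adjusted p = 0.0131, limma), while 3.55% of all tested genes were called, 0.828% with a higher and 2.73% with a lower value in TEM cells. It was higher in YFP+ cells within all 3 replicate numbers of TEM cells and lower within all 3 of naïve cells. *Il12rb2* had a difference of 1.96 (adjusted p = 0.0965, limma), which passed the threshold without YFP+ naïve replicate 2 (0.0417), so that 2 receptors were then called, and also with DESeq2 on all libraries (0.00937). Over all genes DESeq2 called 838 in the interaction, where limma called 554. For *Il23r* both naïve groups had 0 reads, so its difference of 1.73 is its TEM change alone and compares no naïve effect. Its adjusted p was 0.178 in limma, 0.0426 in limma without a variance trend and 0.91 with DESeq2. *Il1r2*, *Il6ra* and *Il6st* were lower in YFP+ cells within all 3 replicate numbers of TEM cells and higher within all 3 of naïve cells, with differences of -2.52, -0.44 and -0.44 and adjusted p of 0.566, 0.173 and 0.284 in limma. With the replicate number as a block, *Il1r2* passed the threshold (adjusted p = 0.0373) and 2 receptors were called. That was the 1 of 23 alternatives that called *Il1r2*, and with 1 library left out the adjusted p was 0.153 to 0.857 (limma). The number called over all genes is not given for the block or for the fit without YFP+ naïve replicate 2.

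The balance between chains was compared within each library as a ratio of normalized counts per kb of merged exons. *Il12rb2* stood at 0.254, 0.215 and 0.320 of *Il12rb1* in YFP- TEM cells and at 0.957, 0.504 and 0.665 in YFP+ TEM cells. *Il23r* stood at 0.0601, 0.0420 and 0.0680 of *Il12rb1* in the former and at 0.141, 0.0909 and 0.126 in the latter. Neither pair of ranges overlapped, so both specific chains were higher relative to the shared chain in YFP+ TEM cells. Of 5 ratios tested between the TEM groups by a two-sided exact permutation test, these had p = 0.1 (adjusted p = 0.25), and 0.1 is the smallest p that 3 libraries against 3 can give.

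The ratio of *Il18rap* to *Il18r1* was 0.163 ± 0.0282 in YFP- TEM and 0.186 ± 0.0151 in YFP+ TEM cells (exact permutation p = 0.3), against 0.00781 ± 0.00205 in YFP- naïve cells. For the decoy *Il1r2* to *Il1r1* the values were 36.5, 49.2 and 9.45 in YFP- TEM and 3.54, 12.9 and 1.70 in YFP+ TEM cells. This ratio was lower in the YFP+ library of all 3 replicate numbers, although the groups overlapped (exact permutation p = 0.2). *Il6ra* and *Il6st* kept a ratio from 0.952 to 1.16 in all 12 libraries.

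**Figure D3:**
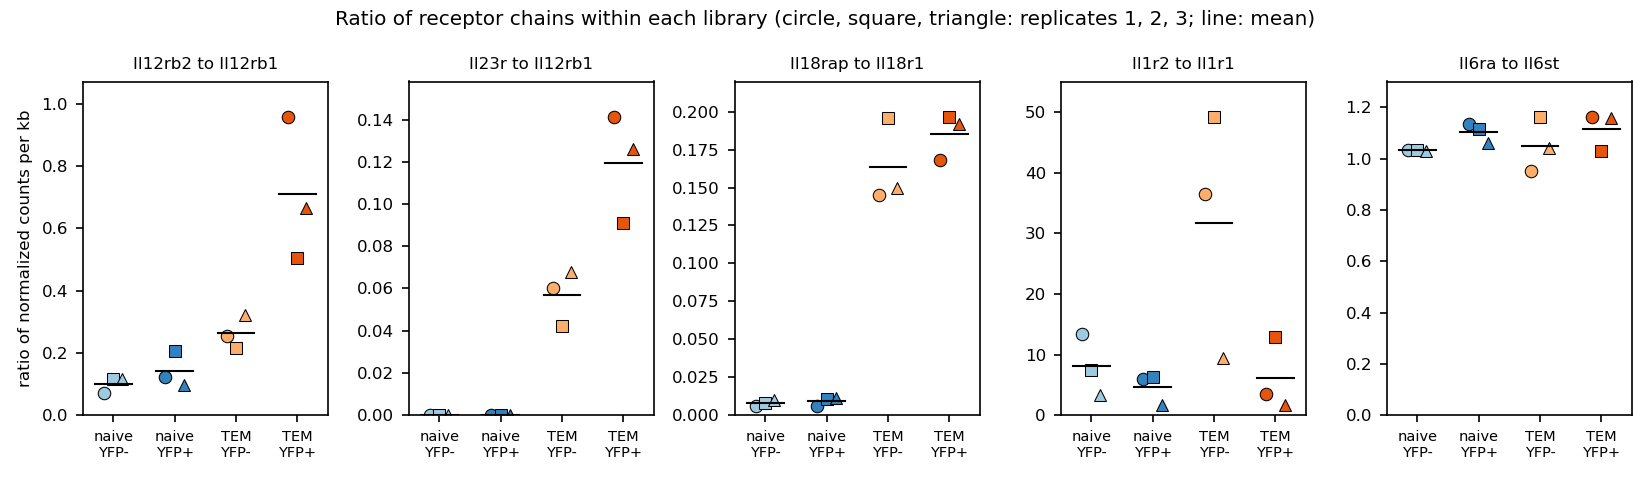
Ratio of normalized counts per kb of merged exons between 2 receptor chains, 1 panel per pair, for the 3 libraries of each of the 4 groups, with symbols for the replicate number and a line at the group mean. *Il12rb2* to *Il12rb1* reaches 0.504 to 0.957 in YFP+ TEM cells against 0.215 to 0.320 in YFP- TEM cells, and *Il6ra* to *Il6st* stays between 0.952 and 1.16.

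Ordered by level per kb, naïve cells of both kinds were led by *Il6ra* and *Il6st*, which overlapped each other, followed by *Il18r1* and *Il12rb1*. In YFP- naïve cells these 4 were at 1902, 1839, 587 and 55.2 normalized counts per kb, and the other receptors at 5.81 or less. In YFP- TEM cells *Il6ra*, *Il6st*, *Il18r1*, *Il1r2* and *Il12rb1* led with 1256, 1200.0, 1126, 843 and 658, and each overlapped the next. In YFP+ TEM cells *Il18r1* led with 1942 ± 427 normalized counts per kb, and its libraries lay above those of *Il12rb1* (1047 ± 144), which overlapped *Il6ra* (1038 ± 106). *Il6st* (936 ± 163) and *Il12rb2* (756 ± 305) followed, again with overlap. *Il1r2* (420.0), *Il18rap* (358) and *Il1rl1* (142) came next, and the libraries of *Il18rap* lay above those of *Il1rl1*. *Il23r* and *Il1r1* were the lowest in both TEM groups, at 37.6 and 30.8 in YFP- and 127 and 78.9 in YFP+ cells, and they overlapped.

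The IL-1 family receptors lie side by side on chromosome 1, all on the plus strand, in the order *Il1r2* (40084692 to 40125230), *Il1r1* (40222480 to 40316201), *Il1rl2* (40324589 to 40367555), *Il1rl1* (40404864 to 40465418), *Il18r1* (40465552 to 40500854) and *Il18rap* (40515362 to 40551707). Only 133 bases separate *Il1rl1* from *Il18r1*. The log2 fold changes from YFP- naïve to YFP- TEM cells were 8.18, 6.04, -1.05, 4.85, 0.95 and 5.30 in that order, so *Il1rl2*, the IL-36 receptor, fell (adjusted p = 0.00151, limma) where its neighbours rose. Between YFP+ and YFP- TEM cells the values were -1.20, 1.38, 0.45, -0.27, 0.77 and 0.96, and none of the 6 was called by limma over all 12 libraries, while other fits called *Il18r1*, *Il18rap* and *Il1r1* as given above. Both sets of values rest on the same YFP- TEM libraries. The other members lie elsewhere, *Il12rb1* on chromosome 8 (70808360 to 70823542), *Il6ra* on chromosome 3 (89869324 to 89913196) and *Il6st* on chromosome 13 (112464070 to 112506860).

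**Figure D4:**
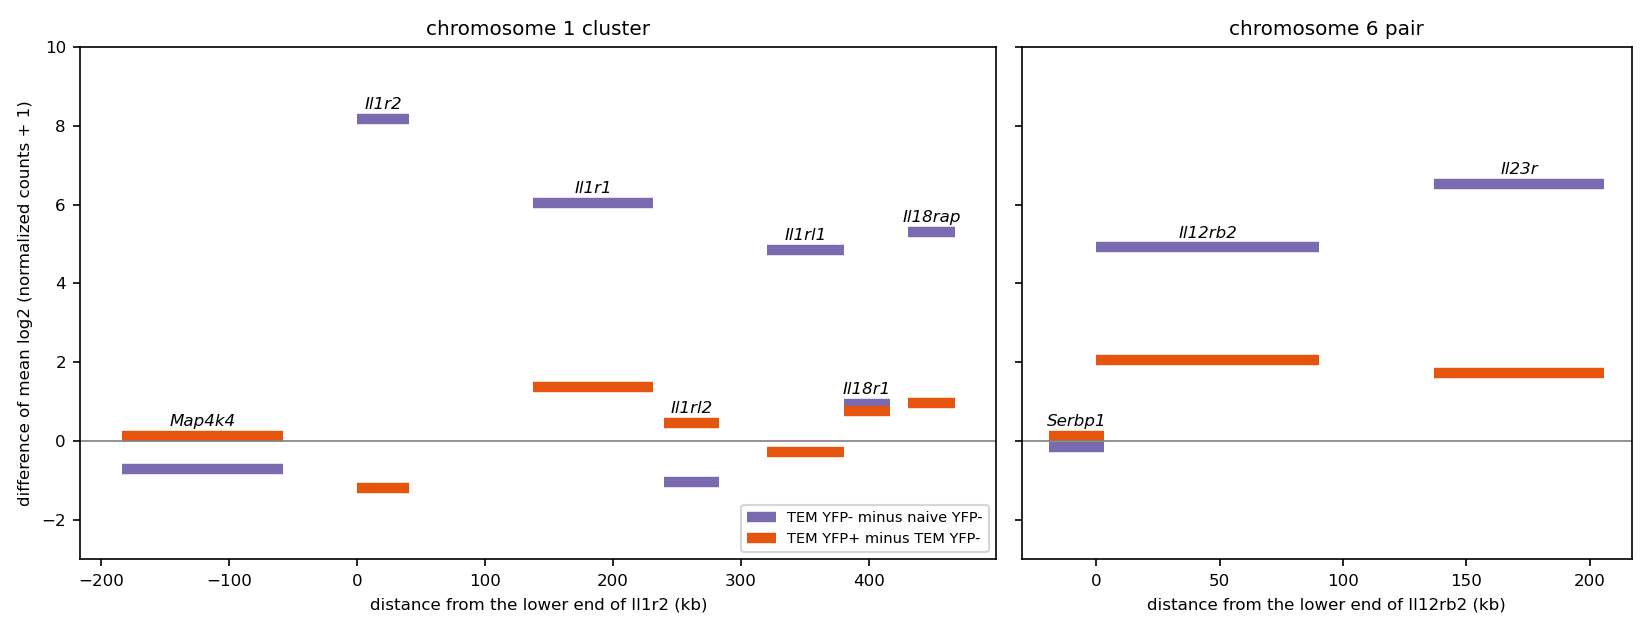
Difference of mean log2 normalized counts plus 1 for neighbouring genes on chromosomes 1 and 6, drawn as bars that span each gene by distance in kb, for YFP- TEM minus YFP- naïve cells (purple) and YFP+ TEM minus YFP- TEM cells (orange). On chromosome 1 the purple bars run from 0.95 to 8.18 for the 5 members and lie at -1.05 for *Il1rl2*, and on chromosome 6 both orange bars of the receptors lie at 1.73 and 2.06; the purple bar of *Il23r* is set against groups with 0 reads and depends on the added 1.

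The pathways around the receptors were counted in the same way between YFP+ and YFP- TEM cells, beside the 2.30% of all tested genes called higher and the 4.67% called lower. Of 12 genes for MyD88 signalling, 1 rose and 11 were not called. The one was *Irak3*, a restraint on this pathway, from 289 ± 22.8 to 887 ± 347 normalized counts (log2 fold change 1.55, SE 0.25, adjusted p = 0.00211, limma). Of 9 JAK and STAT pathway genes, 1 rose, the feedback inhibitor *Socs1*, from 2413 ± 183 to 3436 ± 314 normalized counts (log2 fold change 0.51, SE 0.13, adjusted p = 0.0306, limma). *Stat4*, which acts below the IL-12 receptor, had 8722 ± 1131 and 11076 ± 681 with separate ranges and did not pass the threshold (log2 fold change 0.35, adjusted p = 0.118, limma). None of 3 other IL-1 family receptors and 2 receptor-shedding proteases was called. The median log2 fold changes were 0.08 for the MyD88 genes, 0.05 for the JAK and STAT genes and 0.72 for the 10 receptors, against -0.01 for all tested genes.

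For receptors that use gp130 and for the ligands, lists of this size allow no reading against the same background shares. Of 4 tested gp130 partners and related chains, 1 fell: *Lifr*, the LIF receptor, had 1569.9, 887 and 1902 normalized counts in YFP- TEM cells and 67.7, 37.3 and 112 in YFP+ TEM cells (log2 fold change -4.37, SE 0.82, adjusted p = 0.00531, limma). *Lifr* was at 20.7 or less in 5 of the 6 naïve libraries and at 215 in YFP+ naïve replicate 2. Of 7 tested ligands and antagonists, 1 fell, *Il12b*, from 31.8 ± 8.41 to 5.39 ± 2.28 normalized counts (log2 fold change -2.40, SE 0.53, adjusted p = 0.0138, limma). *Il1b* lay lower in YFP+ TEM cells with separate ranges, 161, 326 and 466 against 50.6, 28.0 and 79.8, and was not called (adjusted p = 0.265, limma). Of the 8 plasmacytoid dendritic cell markers, 6 fell in the same comparison, and the part of such cells in the levels of *Lifr* and the ligands was not tested.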

How the data were processed

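RNA of 12 libraries of sorted CD4+ T cells was sequenced with a stranded total RNA kit. According to the methods, the authors mapped reads to mm10 with DRAGEN, counted them on genes with Rsubread and tested them with DESeq2. The annotation, strand setting and versions are not given in the sources used here. The deposited signal is a table of normalized counts, in which the authors divided each library's reads by its DESeq2 size factor. Whole reads were recovered from 100% of values within 0.001 reads.

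Log2 values of the deposited normalized counts plus 1 entered a model of 4 group means with a variance trend in limma 3.58.1 under R 4.3.3. It covered the 15587 genes that reached 5 normalized counts in 3 or more libraries, on 8 residual degrees of freedom. Calls used p values adjusted by Benjamini-Hochberg over all tested genes, with a threshold of 0.05. The study also asked for a log2 change of at least 2 either way. Minimum fold sizes were run as alternatives, as were other pseudocounts, filters, scalings, the replicate block, no variance trend, only the libraries compared and leaving out each library. Il23r at 0 reads was compared with a floor of 3 reads per library. The recovered reads were tested with edgeR 4.0.16 and DESeq2 1.42.0 as alternatives. The fits were first tested on simulated data.

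Genes were named by Entrez identifier from RefSeq on GRCm38.p6 (16749 of 17523 matched), which also gave positions and promoter windows, and 9 of 10 receptor genes had a window. Lengths are merged exons. The members and gene lists were chosen with earlier results of these data known. Named are the members, list genes called in a YFP comparison or with the largest changes of their list, and the genes whose centred log2 values were closest to a member's, together with Csf2. Il1rap, Stat4, Il1b, Serbp1, Gm16894, Cd4 and Cd44, Siglech, Klk1, Cox6a2 and Ccr9, Il2ra, Cd14 and Eomes, Xist and Ddx3y were named after their values were seen.

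Libraries of the same replicate number from YFP+ and YFP- cells of one cell type deviated together from their group means, with correlations from 0.180 to 0.491 in 6 pairs against -0.351 to 0.0184 for different numbers. The numbers were therefore taken to pair these libraries. The main fit and the permutation test did not use this pairing, and only the replicate block did. With the block, limma called 4 receptors between TEM groups and 2 in the interaction, against 3 and 1 in the main fit. The number called over all genes is not given for the block, so a gain in all genes cannot be told from one in the receptors. The methods name 3 mice, and the 2 sexes show more than 1 animal, but no source used here says which libraries share an animal. The p-values measure the spread between these libraries.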

Additional observations from a re-analysis of the deposited data

Results flagged for a closer look

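The effect of YFP status differed between TEM and naïve cells, by a test of the interaction, for 1 receptor and 1 gene of the surrounding pathways. For *Il12rb1* the difference in log2 fold change was 1.00 (adjusted p = 0.0131, limma), since it was higher in YFP+ than in YFP- TEM cells and lay slightly lower in YFP+ than in YFP- naïve cells. For *Lifr* it was -5.52 (adjusted p = 0.021, limma), and this value includes the high *Lifr* level of YFP+ naïve replicate 2. Among 69 tested marker genes of other cell types and states, 16 had an interaction past the same threshold.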

How the results depend on the processing

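Of 950 values for single receptors under alternatives, 905 kept their direction and their side of the threshold, 15 newly passed it, 21 no longer did and 9 changed sign, none of which had been called. No value of TEM against naïve cells changed sign. The number of receptors called between TEM groups, 3, became 5 with DESeq2 (*Il18r1* and *Il18rap* added), 6 with only the 6 libraries compared (*Il1r1* added as well) and 1 when a log2 change of at least 2 either way was also required, and ranged from 1 to 5 when 1 library was left out. For the interaction, 1 receptor became 2 with the replicate block, without a variance trend or with DESeq2, 0 with a log2 fold change of at least 1 or at least 2, and 1 to 2 with 1 library left out. The receptor added without a variance trend was *Il23r*, which had 0 reads in all naïve libraries. DESeq2 called more genes than limma in all, 1588 against 1087 between TEM groups and 838 against 554 in the interaction. No number over all genes is given for the block, no variance trend, only the 6 libraries or 1 library left out. The block, which pairs libraries by number, changed no other receptor call than those of *Il18r1* and *Il1r2*. *Il23r* was not called with a pseudocount of 0.1 (adjusted p = 0.169). The difference of *Il1r1* in the interaction was 0.27 with a pseudocount of 5 and ranged from -0.97 to 0.37 with 1 library left out. The naïve YFP fold changes then ranged from -0.086 to 0.30 for *Il18r1*, from -0.063 to 0.79 for *Il18rap* and from -0.24 to 0.38 for *Il12rb2*. Per kb of the longest transcript, 6 of 10 receptors kept their rank in YFP+ naïve cells, and *Il6st* ranked above *Il6ra* in every group. The causes were not tested. With 3 libraries per group, the calls of *Il18rap* and *Il1r1* between TEM groups differ between fits, and *Il1r1* in YFP- naïve cells rests on 6 reads.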
